A study of Rattus norvegicus with 8 samples.

Results

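In tumours grown from ELT3-V3 cells, 59 of the 23918 genes measured stood at least 2 times higher in every one of the 6 rapamycin-containing tumours than in either of the 2 vehicle tumours. The genes were chosen by their TPM in these same 8 tumours (a transcript level scaled for gene length and to a fixed sum per library). The lowest of the 6 treated tumours had to reach 2 TPM and 2 times the higher control. The size of the rise over control is therefore a description of the choice and is given with no test. Every one of the 59 is known here by its Ensembl rat ID alone, since 0 of the IDs could be paired with a gene symbol. Their functions are not described, and 2 of them are printed by ID, the first by level and the first by size of rise.

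ELT3-V3 is a rat uterine leiomyoma line, and ELT3 cells lack the tumour suppressor tuberin. Tuberin normally holds back mTORC1, a kinase complex that promotes protein and lipid synthesis, restrains lysosome formation and autophagy, and drives growth when nutrients and growth factors are present. Without tuberin mTORC1 is constantly active, as it is in the lung disease lymphangioleiomyomatosis (LAM), for which these cells serve as a model. Rapamycin binds a small cellular protein and the pair blocks part of the activity of mTORC1, which slows growth more often than it kills cells.

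The cells were injected under the skin of 6-week-old female NOD-scid mice, which lack mature T and B cells but keep other host cells such as macrophages, fibroblasts and vessels. Treatment began by random assignment at a tumour volume of 150 to 200 mm3, and 2 tumours were sequenced per group. Vehicle controls received carboxymethylcellulose with Tween-80, and the rapamycin group received 0.25 mg/kg/day. The other 2 groups received rapamycin with clorgyline (10 mg/kg/day), an inhibitor of monoamine oxidase A, or with rasagiline (1 mg/kg/day), an inhibitor of monoamine oxidase B. The labels do not state the rapamycin dose of the combinations again. They also do not say whether each tumour came from its own mouse, so tumours of a group may not be independent. Their spread, and the intervals built on it, may then understate the spread between mice.

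Libraries listed between 17001 and 18012 genes above 0, and sequencing depth was unknown because TPM keeps none. No marker of leiomyoma, stromal or immune cells could be read without symbols, so the labelled cell type was not checked against its markers. In bulk tumour RNA, more cells of a type and more RNA per cell cannot be told apart. The values may also include mouse host transcripts, whose part in the result was not tested. Rapamycin tumour 2 stood furthest from the other libraries, at a mean root mean square difference of 0.783 log2 units against 0.586 to 0.663 for each other tumour, and its effect on the fold of means and on comparisons with rapamycin is given beside them.

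Among the 10700 genes with at least 2 TPM in all 6 treated tumours, 0.551% met the rule. The mirrored rule, in which the lower of the controls reached 2 TPM and 2 times the highest treated tumour, held for 55 genes. The scatter of treated against control levels shows the 59 as a thin layer above a dense band. Across the 10700 genes the median ratio of the lowest treated tumour to the higher control was 0.775.

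**Figure D1:**
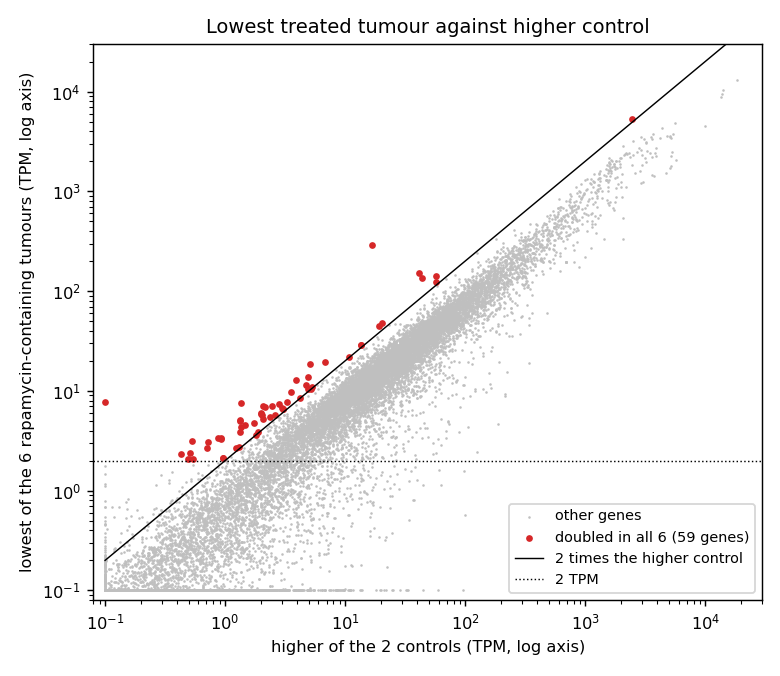
The lowest TPM among the 6 rapamycin-containing tumours (vertical, log axis) against the higher TPM of the 2 controls (horizontal, log axis), 1 point per gene, with values under 0.1 TPM drawn at 0.1. The 59 red points lie above the solid line (2 times the control) and the dotted line (2 TPM), and 1 of them, listed at 0 in both controls, sits on the left edge.

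The 59 genes were mostly of low abundance. Their mean over the treated tumours was under 50 TPM for 48 and at least 50 TPM for 11, with a median of 13.8 TPM, against 23.4 TPM for the 10700 genes. Control levels were lower still. The higher control was under 1 TPM for 13 genes, from 1 to under 5 TPM for 31, from 5 to under 50 TPM for 12 and at least 50 TPM for 3. A single gene was listed at 0 in both controls, and 2 were listed at 0 in one of them.

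Those 2 genes carried identical values in all 8 tumours, at 0.953 and 0 TPM in the controls and at 2.13 TPM or more under treatment, with a highest value of 4.20 TPM. Such rows can arise when reads cannot be split between near-identical copies. They may be a single measurement, which would leave 58 distinct profiles. Over all genes listed, 463 with a value above 0 had all 8 values in common with another.

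ENSRNOG00000011821 was the most abundant of the set. It stood at 2392 and 2464 TPM in the controls and at 5406 and 5492 TPM with rapamycin. With clorgyline added it stood at 6217 and 5351 TPM, and with rasagiline added at 7208 and 5373 TPM. The treated tumours lay close together, with the highest 1.35 times the lowest, and none came near the controls. The mean over the 6 treated tumours was 5841 TPM, or 2.41 times the control mean of 2428 ± 50.5 TPM (SD, n = 2), which is the smallest rise of means among the 58 genes with a control value above 0.

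ENSRNOG00000016945 showed the largest ratio of the lowest treated tumour to the higher control, 17.1. It was listed at 13.8 and 16.9 TPM in the controls. Rapamycin tumours stood at 508 and 5551 TPM, clorgyline combination tumours at 292 and 904 TPM, and rasagiline combination tumours at 288 and 1829 TPM. The highest treated tumour was 19.3 times the lowest, so the replicates of each group differed far more than the 2 controls did. In rapamycin tumour 2 this gene matched ENSRNOG00000011821 in level, whereas in the controls it was more than 100 times lower. On the log2(TPM + 1) scale the treated mean exceeded control by 5.72 units, and by 5.18 without rapamycin tumour 2.

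Behind these, the third gene by level stood at 56.9 and 53.7 TPM in controls and between 142 and 648 TPM in treated tumours. The fourth stood at 41.2 and 24.98 TPM against 152 to 600 TPM, and the fifth at 57.3 and 50.5 TPM against 124 to 388 TPM. Control and treated values were well apart for each of these 3 genes, and the highest value was in rapamycin tumour 2 for the first pair and in clorgyline combination tumour 2 for the last. The gene listed at 0 in both controls reached 16.3 and 20.03 TPM with rapamycin. It reached 15.4 and 14.5 TPM with clorgyline added and 12.1 and 7.70 TPM with rasagiline added. No fold is given for it.

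Most rises were well beyond the threshold when means were used. The mean over treated tumours was a median of 5.64 times the control mean among the 58 genes with a control value above 0. It was at least 5 times for 38 genes and at least 10 times for 11, and the range ran from 2.41 to 102. The highest of these, for ENSRNOG00000016945, rested largely on rapamycin tumour 2 and was 49.8 without it. Without that tumour the range ran from 2.43 to 77.6, the median was 5.39, and 35 and 10 genes reached 5 and 10 times. The lowest treated tumour gave a narrower picture. It was under 2.5 times the higher control for 24 of the 59 genes, at least 3 times for 24 and at least 5 times for 5, where the gene at 0 in controls counts as beyond each limit.

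The edge of the set was not a natural gap. The 4 genes nearest above the threshold had ratios of 2.0004, 2.01, 2.01 and 2.02, and the 4 nearest below had ratios of 1.9996, 1.99, 1.98 and 1.98. In all, 7 of the 59 lay below 2.1 times, and 17 genes just outside lay between 1.9 and 2 times. The nearest gene outside stood at 1.62 and 0.989 TPM in controls and between 3.24 and 13.6 TPM in treated tumours. The nearest inside stood at 1.80 and 1.18 TPM and between 3.61 and 8.03 TPM, so the 2 profiles were much alike. A further 164 genes doubled in the same way but had a lowest treated value above 0 and under 2 TPM.

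**Figure D2:**
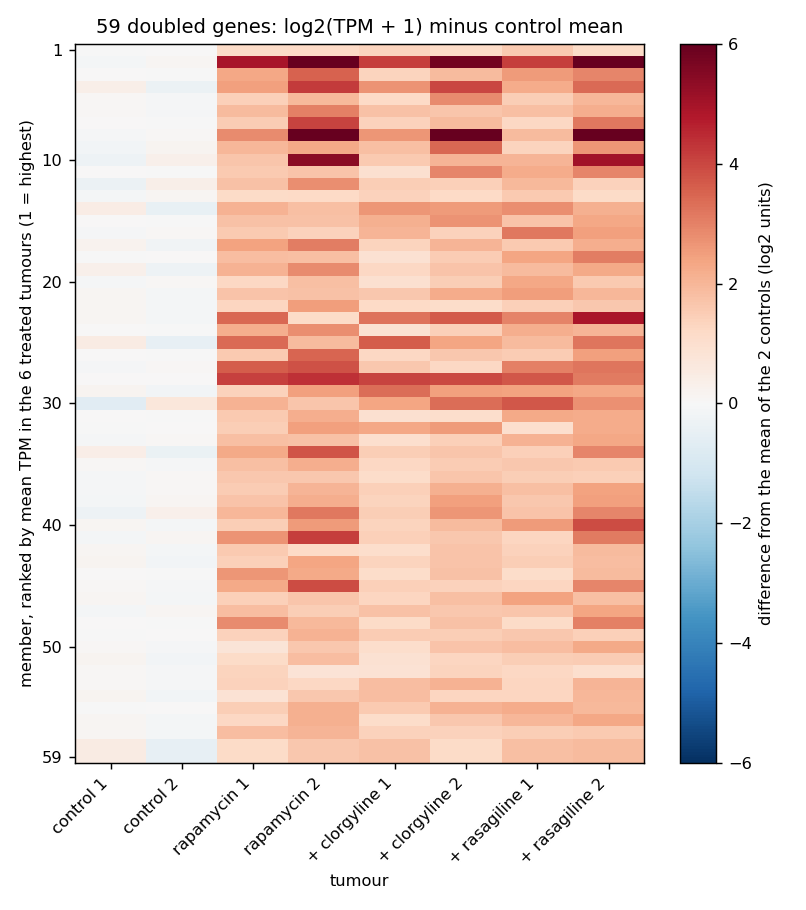
Each row is 1 of the 59 genes, ranked by mean TPM in the treated tumours, and each column is a tumour. Colour is log2(TPM + 1) minus the mean of the 2 controls (red higher, blue lower, in log2 units). The treated columns are red in every row, as the choice requires. The colour scale is capped, so the largest rises share 1 shade. These darkest cells sit mostly in rapamycin tumour 2 and rasagiline combination tumour 2.

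The rise differed in size between treated tumours. Over the 58 genes with a control value, the median ratio to the control mean was 4.30 in rapamycin tumour 1 and 6.70 in rapamycin tumour 2. It was 3.63 and 4.96 in the clorgyline combination tumours, and 5.04 and 7.04 in the rasagiline combination tumours. Each pair of replicates differed, and the lowest and highest of the 6 medians came from the clorgyline and rasagiline combinations. Together the 59 genes held 0.277% and 0.281% of all TPM in the controls and between 0.740% (rapamycin tumour 1) and 1.44% (rapamycin tumour 2) in the treated tumours. Without ENSRNOG00000011821 their summed level was 379 and 350 TPM in the controls and from 1543 TPM (clorgyline combination tumour 1) to 8929 TPM (rapamycin tumour 2) under treatment. ENSRNOG00000016945 made up most of the sum in rapamycin tumour 2.

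Rapamycin tumour 2 was the highest of the 6 for 23 of the 59 genes, or 38.98%, against 26.3% of the 10700 genes. Rasagiline combination tumour 2 was highest for 14, or 23.7%, against 12.2%. These tumours were the highest pair for 17 genes, or 28.8%, against 12.7% of the 10700. Rapamycin tumour 1 was highest for 2 genes, or 3.39%, against 19.9%. Clorgyline combination tumour 1 was the lowest of the 6 for 24 genes, or 40.7%, which is close to its 38.0% share of the 10700 genes. Genes of 1 tumour are not independent, and no test was made of these shares.

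Replicates of 1 group differed more for these genes than for genes in general. The median ratio between replicates was 1.58 with rapamycin, 1.499 with clorgyline added and 1.58 with rasagiline added, against 1.27, 1.20 and 1.14 for the 10700 genes. In the controls the median ratio over the 56 of the 59 genes with both values above 0 was 1.21. In 40 of the 59 genes a replicate pair differed by a larger ratio than the highest and lowest of the 3 treated group means, against 75.7% of the 10700 genes (67.8% of the 59).

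Evenness across the treated tumours divided the genes. The highest treated tumour was a median of 2.96 times the lowest, against 1.60 for the 10700 genes. In 11 genes it was under 2 times, and in another 11 it was at least 5 times (18.6% of the 59, against 2.79% of the 10700). The median treated mean was 5.96 TPM for the even genes and 14.8 TPM for the uneven genes, although the even genes include ENSRNOG00000011821, the most abundant of the 59, and also the pair with identical values.

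Of the 11 uneven genes, 8 were highest in rapamycin tumour 2 and 3 in rasagiline combination tumour 2, and in 9 these were the highest pair. The lowest value was in rasagiline combination tumour 1 for 6 of them. The most uneven gene stood at 1.21 and 1.37 TPM in the controls. It stood at 15.1 and 220 TPM with rapamycin, at 13.5 and 151 TPM with clorgyline added and at 7.57 and 313 TPM with rasagiline added. Each treated group thus held 1 tumour with a level over 10 times that of the other.

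A further uneven gene stood at 1.98 and 3.51 TPM in the controls, at 154 TPM in rapamycin tumour 2 and at 119 TPM in rasagiline combination tumour 2. Its other 4 treated tumours lay between 9.86 and 14.1 TPM. Another broke the pattern, with its lowest treated value of 2.08 TPM in rapamycin tumour 2 and its highest of 39.5 TPM in rasagiline combination tumour 2. Its controls were listed at 0.487 and 0.273 TPM.

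**Figure D3:**
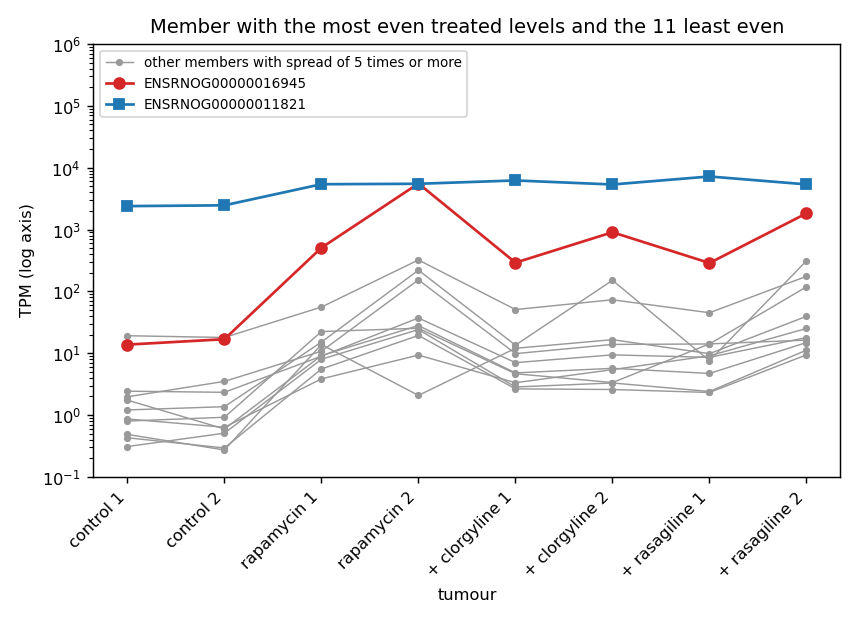
TPM (log axis) in each of the 8 tumours for the 11 genes whose highest treated tumour was at least 5 times the lowest (red and grey) and for ENSRNOG00000011821 (blue), whose treated tumours were the closest together. Lines only join the values of a gene. Most grey lines and the red line of ENSRNOG00000016945 peak at rapamycin tumour 2 and rise again at rasagiline combination tumour 2.

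The weight of each tumour in the choice was measured by applying the rule to the other 7. The tumour left out, whose own values had not been used, was then read. The value it was compared with had been used by the rule. That was the lowest treated tumour for a left-out control, and the higher control for a left-out treated tumour. The threshold of 2 times had bounded that value in the chosen genes only, so these readings are no test. Without control 1 the rule chose 130 genes, and without control 2 it chose 132. Leaving out a tumour can only loosen the rule, so the 59 are kept in every case by construction. With the left-out control included, these 59 were 45.4% and 44.7% of the genes chosen without it. The lowest treated tumour was a median of 1.86 times the left-out control 1 and 1.91 times the left-out control 2. It lay above the left-out control in 121 and 123 genes (93.1% and 93.2%). For all genes with at least 2 TPM in the treated tumours the medians were 0.816 and 0.868, and the shares 24.6% and 30.9%.

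Among the treated tumours, rapamycin tumour 2 removed the most genes. Without it the rule chose 122 genes, of which 59 (48.4%) were kept when it was included. Its level was above the higher control in 92 of the 122 (75.4%) and at or below it in 30. For all genes at 2 TPM in the other treated tumours the share above was 43.8% and the median ratio was 0.935. In the 122 genes its median ratio to the higher control was 2.00, with quartiles of 0.991 and 5.67. That spread covers genes that were not raised there at all and genes raised more than elsewhere.

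Clorgyline combination tumour 1 removed 41 of 100 genes. Its level was above the higher control in 99 of the 100 and at or below it in 1. The share above was 32.1% for all genes at 2 TPM in the other treated tumours. Rapamycin tumour 1 removed 13 of 72, clorgyline combination tumour 2 removed 5 of 64, rasagiline combination tumour 1 removed 11 of 70 and rasagiline combination tumour 2 removed 8 of 67. The median ratio of these 4 left-out tumours to the higher control lay between 3.55 and 5.73, against 1.00 to 1.02 for all genes at 2 TPM in the other treated tumours. All of these readings share the same controls. By construction the set could only grow when a tumour was omitted. It grew by between 5 and 73 genes, most without either control, rapamycin tumour 2 or clorgyline combination tumour 1.

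**Figure D4:**
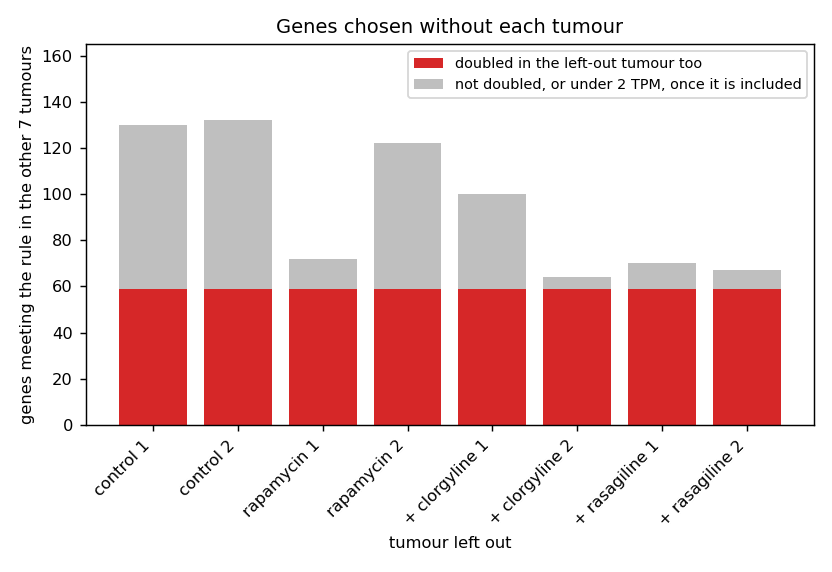
Number of genes (vertical axis) that met the rule in the other 7 tumours when the tumour named on the horizontal axis was left out. The red part also met the rule in that tumour. It is 59 genes in every bar by construction, since omitting a tumour can only loosen the rule. The grey part, from 5 to 73 genes, did not meet the rule in that tumour.

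Whether clorgyline or rasagiline changed the level of these genes beyond rapamycin was asked with comparisons that the rule did not make, although the rule does set a lower bound for every treated tumour. All 59 passed the filter of at least 1 TPM in 2 tumours through their treated values. 0 of the 59 passed in any of the 3 comparisons between rapamycin-containing groups (limma, Benjamini-Hochberg adjusted over 13686 genes). Of all genes tested 0% were called for the clorgyline combination against rapamycin, 0.0146% for the rasagiline combination against rapamycin and 0.0219% for the combinations against each other. At an unadjusted p under 0.05 in limma there were 15, 8 and 8 of the 59 genes (25.4%, 13.6% and 13.6%), against 7.61%, 5.81% and 4.60% of all genes tested. The count of 15 rose without rapamycin tumour 1 and fell without any other tumour, most without rapamycin tumour 2 or clorgyline combination tumour 1. It also fell without either control. Controls enter this comparison only through the shared estimate of the spread, and the rule had set an upper bound on them. With only the 2 groups fitted the count was 11 of the 59 (18.6%), against 4.25% of all genes tested. Without rapamycin tumour 2 the share of the 59 came much closer to that of all genes. The first count of 8 rose without rapamycin tumour 1 and fell most without rasagiline combination tumour 1. It also fell without rapamycin tumour 2 or either control. The share of all genes moved the same way in each of these fits.

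With clorgyline added, the median log2 difference from rapamycin was -0.26 over the 59 genes and -0.02 over all genes tested. Its direction turned with rapamycin tumour 2, without which the medians were 0.05 and -0.09. Without rapamycin tumour 1 they were -0.52 and 0.04, and without clorgyline combination tumours 1 and 2 the median of the 59 was -0.14 and -0.58. In 19 of the 59 (32.2%) both clorgyline combination tumours lay below both rapamycin tumours, against 23.3% of the 10700 genes, and in 6 (10.2%) they lay above, against 10.9%. The gene with the smallest p stood at 22.4 and 25.4 TPM with rapamycin and at 4.67 and 3.36 TPM with clorgyline added. Its controls were listed at 0.801 and 0.923 TPM, so the clorgyline combination stood between control and rapamycin. The log2 difference was -2.32 (SE 0.222, 95% interval -2.84 to -1.80, n = 2 per group; limma adjusted p = 0.11). That adjusted p was the smallest of all genes tested in this comparison and ranged from 0.017 to 0.429 over 16 alternatives. Among these it passed the threshold only without rapamycin tumour 1, where rapamycin tumour 2 alone stands for its group. In that fit 433 of the 13686 genes were called (3.16%, 327 higher and 106 lower with clorgyline added), with 6 of the 59 among them, all lower.

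With rasagiline added, the median log2 difference from rapamycin was -0.01 over the 59 genes, against 0.05 over all genes tested. This median, too, took either sign, at 0.32 without rapamycin tumour 2, -0.14 without rapamycin tumour 1, and 0.25 and -0.15 without rasagiline combination tumours 1 and 2. Both rasagiline combination tumours lay above both rapamycin tumours in 12 of the 59 (20.3%, against 15.9% of the 10700 genes) and below them in 7 (11.9%, against 13.5%). The smallest p belonged to a gene at 4.37 and 4.89 TPM in the controls, 15.8 and 13.8 TPM with rapamycin, and 48.7 and 30.1 TPM with rasagiline added. With clorgyline added this gene stood at 22.1 and 13.9 TPM. Its log2 difference between the rasagiline combination and rapamycin was 1.32 (SE 0.296, 95% interval 0.62 to 2.01, n = 2 per group; limma adjusted p = 0.344, and 0.102 to 1 over the alternatives).

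Between the combinations, whose inhibitors were given at different doses, values are set side by side. The median log2 difference of the clorgyline from the rasagiline combination was -0.32 over the 59 genes and -0.09 over all genes tested. Without rasagiline combination tumour 2 the medians were -0.11 and -0.09, and without tumour 1 of that group -0.49 and -0.08. Without clorgyline combination tumour 2 they were -0.60 and -0.19, and without tumour 1 of that group -0.22 and -0.003. Both clorgyline combination tumours lay below both rasagiline combination tumours in 20 of the 59 (33.9%, against 26.9% of the 10700 genes) and above them in 3 (5.08%, against 8.98%). The smallest p was again that of the gene lowest with clorgyline, at 4.67 and 3.36 TPM against 14.2 and 16.3 TPM (log2 difference -1.71, SE 0.222, 95% interval -2.22 to -1.19, n = 2 per group; limma adjusted p = 0.234, and 0.106 to 0.814 over the alternatives).

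These missed thresholds do not show that the groups were alike. For 15 of the 59 genes the 95% interval excluded a change of 1 log2 unit or more in either direction with clorgyline added, and the same was true of 13 with rasagiline added and 13 between the combinations (25.4%, 22.0% and 22.0%). The shares were 64.0%, 66.6% and 67.7% of all genes tested. All genes tested passed a lower filter than the 59, which had at least 2 TPM in every treated tumour. Both shares moved with the pseudocount. With clorgyline added they were 18.6% of the 59 and 53.5% of all genes at 0.1 TPM. At 5 TPM they were 44.1% and 85.8%. The comparisons with rapamycin share the rapamycin tumours.

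**Figure D5:**
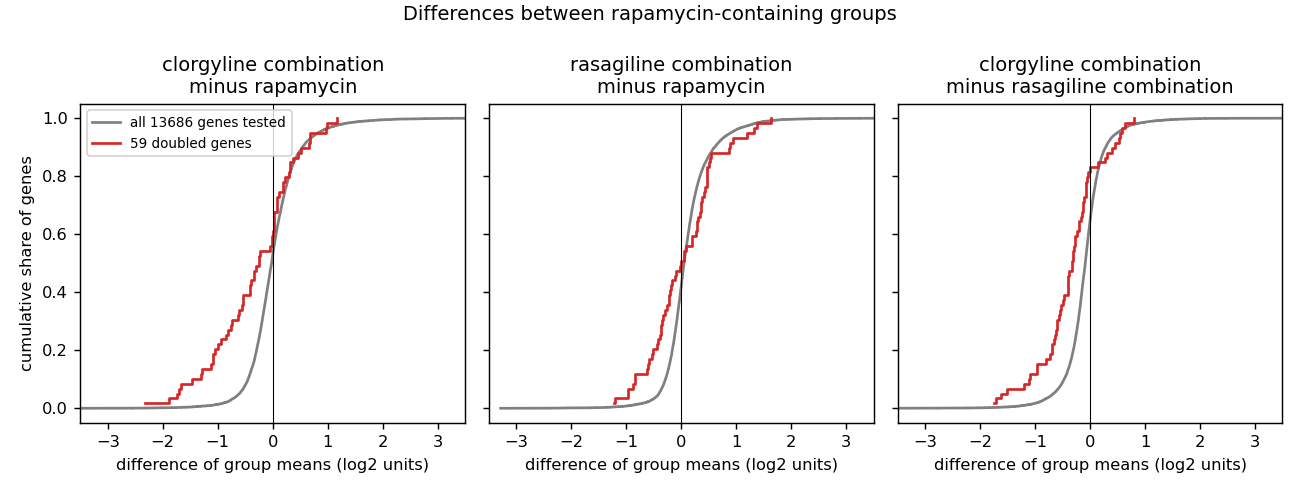
Cumulative share of genes (vertical axis) by the log2 difference between 2 rapamycin-containing groups (horizontal axis, difference of mean log2(TPM + 1)), for the 59 genes (red) and all 13686 genes tested (grey). The red curves are spread more widely, and for the clorgyline combination against rapamycin, with all tumours kept, the lower part of the red curve lies to the left of the grey one.

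Scaling moved the edge of the set. The median log2 difference of all genes tested between treated tumours and control was 0.10 as deposited and 0.002 after each library was rescaled to the same median, and that of the 59 genes was 1.96 and 1.87. The rule chose 55 genes after median rescaling, 51 of them among the 59, and 45 after quantile normalization, 43 of them among the 59. The limma comparison of the mean of the 3 treated groups with control called 2.44% of all genes tested. The rule used this contrast, so the 59 genes get no test from it. Their calls are not read here, and appear only as counts where the dependence on the processing is described.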

How the data were processed

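RNA was sequenced from 8 subcutaneous tumours in 4 groups of 2, with RNA extracted with TRIzol and libraries made by a TruSeq protocol, per the labels' protocols. The authors deposited TPM values for Ensembl rat gene IDs, and each column sums to 1000000. Per the submitters' processing notes, the rat build was rn6 and the tools included DESeq2, bedtools, STAR 2.4.0f1 and SAMtools 0.1.18, with no role stated. How TPM was computed, and whether mouse reads were removed, is not given in the sources used here. A RefSeq table of 47357 rat genes matched 0 of the IDs, so the gene lists, markers and the rule for named genes could not be applied, and no sequence is shown. The 2 IDs printed rank first by level and by ratio.

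The rule was applied to TPM as deposited. For other comparisons limma 3.58.1 (R 4.3.3) fitted 4 group means to log2(TPM + 1) of 13686 genes with at least 1 TPM in at least 2 tumours, with a variance trend, two-sided, adjusted p below 0.05 by Benjamini-Hochberg. Fold changes on this scale understate changes of low genes. The fit was also run on simulated data with independent noise for each gene. Genes of 1 tumour are not independent, so nothing is read from that run. Replicate numbers follow the order of the samples and pair nothing; the meaning of the letter and number in each title is not stated. Plots used matplotlib 3.10.9. Members and lists were chosen with earlier results of these data known. Alternatives were other pseudocounts, filters, scalings, rule limits and each tumour left out.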

Additional observations from a re-analysis of the deposited data

How the results depend on the processing

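The number of genes chosen was 39 with a lowest treated level of 5 TPM, 81 at 1 TPM, 189 at a threshold of 1.5 times and 24 at 3 times. Leaving out single tumours, which can only loosen the rule, gave 64 to 132. Genes called for the clorgyline combination against rapamycin numbered 1 at a pseudocount of 0.1 TPM and 0 to 433 without single tumours, where 0 to 6 of the 59 were called. For the rasagiline combination against rapamycin the 2 genes called became 5 and 6 at pseudocounts of 0.1 and 5 TPM, 0 with no filter or with only these groups fitted, 1 after quantile normalization or without a variance trend, and 0 to 408 without single tumours. Between the combinations the 3 genes called became 6 at a pseudocount of 5 TPM, 0 with no filter, and 0 to 4 without single tumours. In the last 2 comparisons 0 of the 59 were called under every alternative. Against control, the 334 genes called for the mean of the treated groups became 22 with no filter, 137 without a trend and 0 to 1306 without single tumours. Of the 59, 2 were called with no filter and 0 to 57 without single tumours. The rule had used this contrast with control to choose the 59, so their counts in it follow from the choice and are no test. The cause of the shifts in all these counts was not tested. Fits without a tumour take the spread of its single remaining partner from the other groups. No paired analysis was possible because the labels do not say what the letter and number that open each title stand for. 3 titles from different groups share the letter E, and rapamycin tumour 2 and rasagiline combination tumour 2 share the number 2. Both controls and rapamycin tumour 1 share the number 1. Clorgyline combination tumour 2 and rasagiline combination tumour 1 share the number 3. Depth is unknown, so the precision of low TPM values could not be stated.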
